A study of Mus musculus with 502 samples.

Results

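Subtelomeric silencers were taken here as the listed silencers whose midpoint lay in the outermost megabase of a human autosome. They were picked by position alone, from the 3 lists of silencers that Ss-STARR-seq gave in 293T, K562 and LNCap cells. A silencer was a member when its midpoint lay below 1 Mb on its chromosome, or within 1 Mb of the highest silencer end seen for that chromosome in any list. The low ends of chromosomes 13, 14, 15, 21 and 22, whose short arms hold repeated ribosomal DNA and satellite sequence, were left out. This left 39 ends, 17 of short arms and 22 of long arms, with 5019 of the 397136 silencers in all: 1374 of 125249 in 293T, 1753 of 134159 in K562 and 1892 of 137728 in LNCap.

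In Ss-STARR-seq, sonicated genomic fragments are cloned into a reporter plasmid, and RNA from transfected cells (output) is set against the plasmid pool (input), so that a silencer is a fragment that lowers the reporter. The lines are 293T, derived from embryonic kidney, the erythroid leukaemia line K562, and LNCap, from a prostate carcinoma that responds to androgen. The culture text gives a serum-supplemented medium for them and no genotype, drug or time separates the libraries of a line. Of the 502 libraries, 461 are output RNA (180 of them from K562) and 41 are input DNA, 40 from LNCap and 1 from 293T. Every library is labelled as mouse, but the lines and the hg38 build are human and the lists were read as human. Each line has 1 deposited list, and which libraries went into it is not stated. Replicate lists were not used here, and how many reads support a silencer is unknown. Every interval below is a 95% interval that covers counting error only, treats silencers as independent counts, and says nothing of how a repeat experiment would vary.

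Human chromosomes end in long arrays of a short telomere repeat. Next to these lie subtelomeres, patchworks of segments that are duplicated between chromosome ends and change quickly in evolution, and inside them the unique sequence of the arm begins, which at many ends is rich in genes and in G and C bases. Genes placed next to a telomere can be repressed, a phenomenon known as telomere position effect. A reporter plasmid carries each fragment away from its chromosome, so the assay reads what the sequence itself does and not the chromatin of the end. How uniquely reads map in duplicated segments was not examined for any value below.

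The outermost megabases were poorer in silencers than the rest of the autosomes in 293T, level in K562 and slightly richer in LNCap. 293T had 35.2 silencers per Mb at the ends (exact Poisson interval 33.4 to 37.1), against 41.6 per Mb (41.3 to 41.8) in the rest of the autosomes. K562 had 44.9 per Mb (42.9 to 47.1) at the ends and 44.7 (44.5 to 45.0) elsewhere. LNCap had 48.5 per Mb (46.4 to 50.7) at the ends and 45.8 (45.5 to 46) elsewhere. The ratio of ends to rest was therefore 0.848 for 293T (exact interval 0.803 to 0.894). It was 1.01 for K562 (0.958 to 1.05) and 1.06 for LNCap (1.01 to 1.11). The 293T interval lay below 1, the K562 interval held 1 and the LNCap interval lay just above it.

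The LNCap excess was small and did not hold under every setting. With the outermost 0.5 Mb in place of 1 Mb its ratio was 0.939 (interval 0.876 to 1.0045). Among silencers starting on the common 50 bp grid it was 0.991 (0.924 to 1.06), and both intervals held 1. Leaving out the fullest end, the long arm of chromosome 19, lowered the LNCap ratio to 1.02 (0.971 to 1.07). For 293T the ratio stayed between 0.821 and 0.869 when each of the 39 ends was left out in turn. Set against only the neighbouring megabase, from 1 to 2 Mb, the 293T ratio turned to 1.09 (interval 1.01 to 1.18), so the ends were sparse against the chromosome interior and not against their neighbours.

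Among the lists, 293T placed the smallest share of its silencers at the ends. The 39 windows made up 1.36% of autosomal length and held 1.15% of the autosomal silencers of 293T (Wilson interval 1.09 to 1.22). They held 1.36% of those of K562 (1.30 to 1.43) and 1.44% of those of LNCap (1.37 to 1.5). The 293T share was 0.823 times the mean of the other lists (interval 0.774 to 0.876), 0.845 times that of K562 (exact interval 0.787 to 0.907) and 0.802 times that of LNCap (0.748 to 0.860). LNCap and K562 were close, at 1.05 times (0.986 to 1.12). The lower 293T share was not particular to the outermost megabase. In successive megabases out to 10 Mb from the ends, the 293T share ran from 0.767 to 0.934 times the mean of the others. Against the rest of its own chromosome for each end, the 293T ratio was 0.853.

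Density changed with distance from the end in all 3 lists. The lowest point of 293T was the megabase from 1 to 2 Mb, with 32.2 silencers per Mb, and the density then climbed to 47.8 per Mb at 9 to 10 Mb. K562 went from 44.9 per Mb in the outermost megabase to 59.7 at 9 to 10 Mb, and LNCap from 48.5 to 61.2. At 9 to 10 Mb each list was denser than over the autosomes beyond the outermost megabase.

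**Figure D1:**
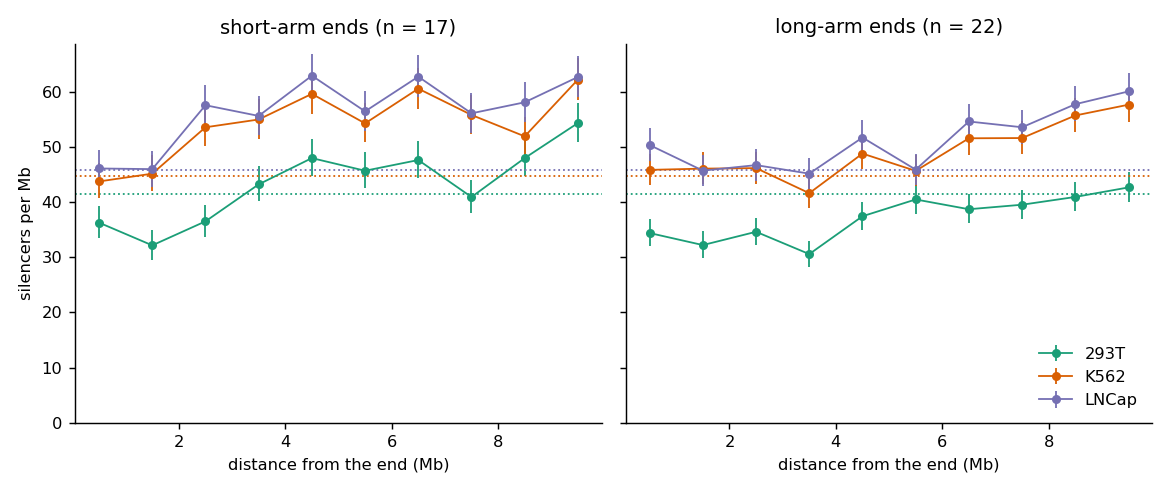
Silencers per Mb (y axis) in successive megabases from the end (x axis, Mb) for short-arm and long-arm ends, with exact Poisson 95% intervals; dotted lines give each list's density in the rest of the autosomes beyond the outermost megabase. All 3 lists are denser at 9 to 10 Mb than in the outermost megabase on both arms, and 293T lies lowest at every distance, from 34.4 per Mb at the long-arm ends and 36.3 per Mb at the short-arm ends.

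Within the outermost megabase the first 200 kb of the short arms was the sparsest stretch. Distances on short arms count from the start of the chromosome, whereas those on long arms count from the outermost silencer and so leave out any empty tip. The first 200 kb of the 17 short-arm ends held 23.5 silencers per Mb in 293T, 24.7 in K562 and 18.2 in LNCap. From 500 to 1000 kb the same ends held 38.4, 51.3 and 58.2 per Mb. The inner stretch was 1.63 times as dense as the tip in 293T (exact interval 1.27 to 2.11), 2.08 times in K562 (1.64 to 2.65) and 3.19 times in LNCap (2.45 to 4.23). It was denser at 12, 12 and 14 of the 17 ends.

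At 3 short-arm ends, those of chromosomes 7, 8 and 17, no list had a silencer in the first 200 kb. Without these ends, a comparison added after the counts were seen, the inner stretch was 1.34 times as dense in 293T (interval 1.04 to 1.74), 1.64 times in K562 (1.29 to 2.11) and 2.62 times in LNCap (2.00 to 3.48). The inner stretch was thus denser than the first 200 kb in each list with and without the empty tips. From 200 to 500 kb the 17 short-arm ends held 41.4 silencers per Mb in 293T, 43.9 in K562 and 44.5 in LNCap. In 293T the density therefore did not rise further from there to the inner stretch. On the long arms, counted from the outermost silencer, the inner stretch was 0.738 times as dense in 293T (0.618 to 0.884), 0.890 times in K562 (0.758 to 1.05) and 1.03 times in LNCap (0.882 to 1.21).

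The balance of the lists also shifted with distance. In the first 200 kb of the short arms, where 293T held 80 silencers, K562 84 and LNCap 62, the 293T share was 1.19 times the mean of the others (interval 0.909 to 1.57). From 500 to 1000 kb, with 326, 436 and 495 silencers, it was 0.765 times (0.674 to 0.868). The long arms went the same way, from 0.962 times (0.812 to 1.14) in the first 200 kb to 0.739 times (0.655 to 0.834) from 500 to 1000 kb. The intervals of tip and inner stretch did not overlap on the short arms and overlapped slightly on the long arms. LNCap moved the other way on the short arms, from 0.711 times (0.531 to 0.952) to 1.23 times (1.10 to 1.37). On the long arms LNCap rose too, from 0.980 times (0.832 to 1.16) to 1.24 times (1.115 to 1.38). The low 293T share was thus seen beyond 500 kb on the short arms and beyond 200 kb on the long arms, where it was 0.725 times (0.619 to 0.848) from 200 to 500 kb. In the first 200 kb of either arm the interval held 1. It also held 1 on the short arms from 200 to 500 kb, where the 293T share was 1.02 times (0.867 to 1.20).

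**Figure D2:**
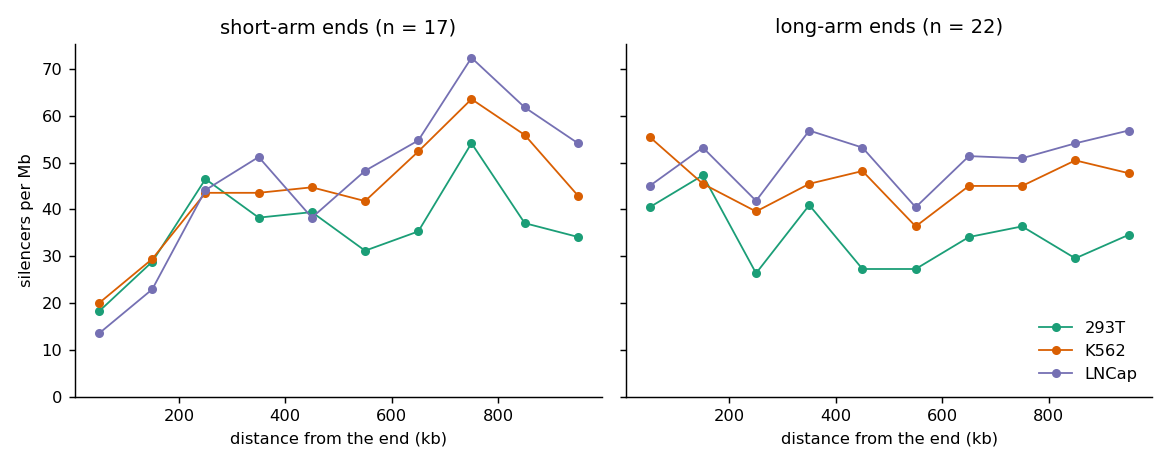
Silencers per Mb (y axis) in 100 kb steps from the end (x axis, kb) over the 17 short-arm and 22 long-arm ends, 1 line per list. On the short arms the 3 lists start together, between 13.5 and 20.0 per Mb in the first step, and part beyond 500 kb, where LNCap reaches 72.4 per Mb and 293T 54.1 per Mb in the step from 700 to 800 kb.

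Just inside and just outside the border at 1 Mb, the exact Poisson intervals overlapped for each list on each arm. On the short arms the last 100 kb inside it held 34.1 silencers per Mb for 293T, 42.9 for K562 and 54.1 for LNCap. The next 100 kb outside held 31.2, 31.8 and 38.8 per Mb. On the long arms the densities were 34.5, 47.7 and 56.8 per Mb inside and 28.2, 51.4 and 40.5 outside.

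The outermost silencer of a short arm lay 12.9 kb from the chromosome start at the nearest and 780 kb at the farthest. The median distance of the first silencer over the 17 ends was 102.5 kb in 293T, 109.1 kb in K562 and 91.5 kb in LNCap. On chromosome 3 the first K562 silencer (chr3:13051-13101, score 4.2) and the first LNCap silencer (chr3:12851-12951, score 2.1) lay side by side. The first of 293T there came at chr3:37351-37401 with a score of 5.2. The first 293T silencers of all ends were on chromosome 5 (chr5:18241-18291, score 2.8) and chromosome 4 (chr4:28451-28501, score 3.1). K562 came next on chromosome 16 (chr16:32301-32351, score 2.0) and chromosome 2 (chr2:35361-35411, score 2.1), and LNCap on chromosome 2 (chr2:37751-37801, score 2.0) and chromosome 9 (chr9:42001-42051, score 2.0). At 10 of the 17 ends some list had a silencer within 100 kb of the start, and at 3 none appeared before 200 kb.

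Counts varied widely among ends. They ran from 1 to 77 in 293T (median 32), from 6 to 81 in K562 (median 46) and from 3 on 14q to the count of 19q given below in LNCap (median 48). The other 1 Mb windows of the autosomes had a median of 43 in each list. The 8 fullest ends held 32.8% of all members and the 5 emptiest 3.98%. Set against the rest of its own chromosome, the end was denser at 12 of 39 ends in 293T, 19 in K562 and 18 in LNCap. It was denser in all 3 lists at 10 ends, sparser in all 3 at 18 and mixed at 11. Chromosome length here counts stretches without any silencer, such as assembly gaps and the left-out short arms, which lowers the density of the rest. Empty stretches inside the end windows lower the density of the ends in the same way. The ratios of single ends to their chromosome carry this limit. With only the 100 kb steps that held a silencer as length, the ratio over all ends was 0.876 in 293T, 1.04 in K562 and 1.10 in LNCap. Such steps were 350 of 390 at the ends (89.7%) and 26300 of 28331 elsewhere (92.8%). This length thus drops a larger share of the ends than of the rest, including any steps that are truly sparse.

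Counts over 2 times the list's window median were reached in LNCap at 3 of 39 ends (7.69%), against 6.66% of the 2701 other autosomal windows, which is about the background. No end reached it in K562, where 5.59% of other windows did, or in 293T, where 0.703% did. Under 0.5 times the median were 8 of 39 ends in 293T, against 7.29% of other windows. In K562 they were 4, against 6.11%, and in LNCap 6, against 6.29%. These shares of ends lay above those of other windows, although 39 ends give them little precision.

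**Figure D3:**
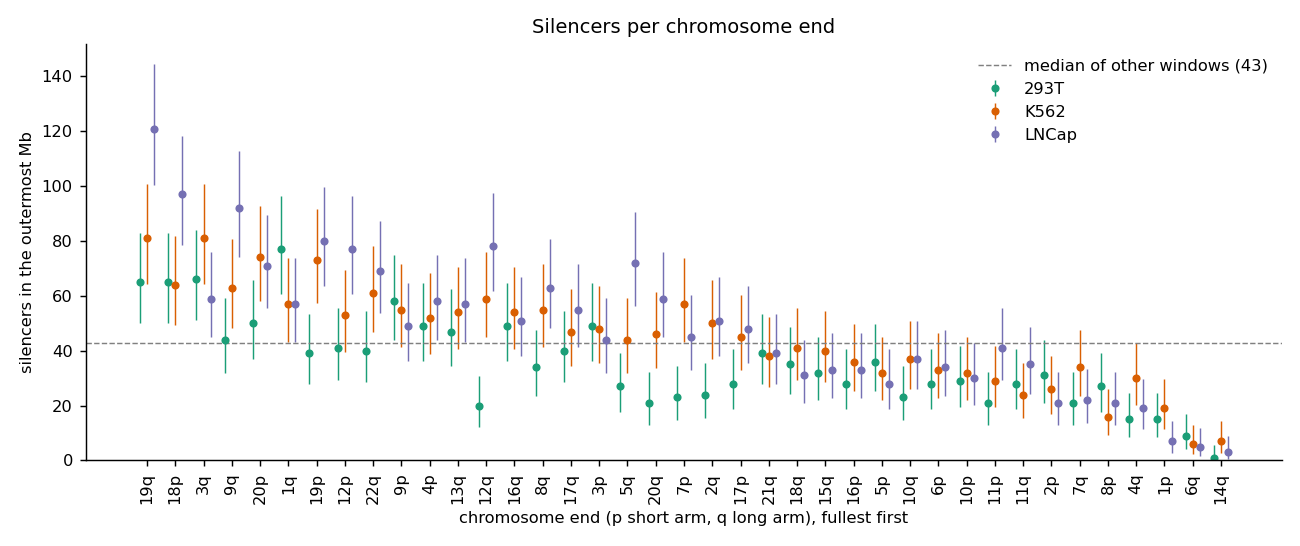
Number of silencers (y axis) in the outermost megabase of each of the 39 chromosome ends (x axis, ordered by the mean of the size-scaled lists) with exact Poisson 95% intervals; the dashed line is the median of 43 in the other 1 Mb windows. Counts fall from at least 65 in each list on 19q to between 1 and 7 on 14q, and 293T lies well under the other lists at 12q and 20q.

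The fullest end was the long arm of chromosome 19, a chromosome tip with many genes for KRAB zinc finger repressors. It held 267 silencers, 65 of 293T, 81 of K562 and the remainder of LNCap. The exact interval of the LNCap count, 100.4 to 144.6, lay above that of 293T (50.2 to 82.8) and touched that of K562 (64.3 to 100.7) only at the edge. The K562 share was 0.686 times that of LNCap (0.511 to 0.916). Because all of chromosome 19 is dense, this end was only 1.11, 0.920 and 1.29 times as dense as the rest of the chromosome. The other end of chromosome 19 held 39, 73 and 80 silencers, which was 0.668, 0.829 and 0.856 times the rest.

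The short arm of chromosome 18 came second with 97 silencers of LNCap, 65 of 293T and 64 of K562. It was 2.02 times as dense as the rest of chromosome 18 in LNCap and 1.34 and 1.26 times in 293T and K562. Next came 3q, the long arm of chromosome 3, with 66, 81 and 59 silencers, where K562 had most and all 3 lists exceeded the rest of the chromosome, by 1.45, 1.81 and 1.29 times. On 9q there were 44, 63 and 92 silencers, and the density reached 2.22 times the rest of the chromosome in LNCap. The short arms of chromosome 20 (50, 74 and 71) and chromosome 12 (41, 53 and 77) completed the 8 fullest, with 19p and the long arm of chromosome 1.

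The long arm of chromosome 1, whose tip carries a large cluster of olfactory receptor genes, held the most 293T silencers of any end. It held 77 silencers in 293T (exact interval 60.8 to 96.2), 57 in K562 and 57 in LNCap (each 43.2 to 73.9). The 293T share was 1.46 times that of K562 (1.02 to 2.09) and 1.49 times that of LNCap (1.05 to 2.14), and no other end had an interval above 1 for 293T against either list. Such intervals were found in 8.37% of other autosomal windows against K562 and in 11.7% against LNCap. This end was picked from 39 for its intervals, so counting error was not excluded. The 293T density was 2.23 times that of the rest of chromosome 1, against 1.47 and 1.40 times in K562 and LNCap. The fullest 100 kb step of 293T also lay there, from 248730237 to 248830237, with 15 silencers against 8 in K562 and 10 in LNCap.

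Other fullest steps fell elsewhere. In K562 it was the last 100 kb of the long arm of chromosome 3, from 197941751 to 198041751, with 18 silencers against 10 in 293T and 8 in LNCap. In LNCap it was chromosome 9 from 137826750 to 137926750, with 21 silencers against 9 in 293T and 6 in K562.

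The sparsest end was the long arm of chromosome 14, where the immunoglobulin heavy chain locus lies, a region of many duplicated variable segments. It held 1 silencer in 293T, 7 in K562 and 3 in LNCap, which was 0.0271, 0.177 and 0.0727 times the density of the rest of chromosome 14. The 293T silencer was at chr14:106359151-106359251 (score 2.2). Of the 7 in K562, 4 lay between 106766700 and 106772451 and 3 between 106871151 and 106872501. The 3 of LNCap started at 106768926, 106872201 and 106877051, the first inside the one K562 cluster, the second inside the other and the third beyond it. None of them overlapped a K562 silencer.

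On 6q, the next sparsest, there were 9, 6 and 5 silencers, spread over the window from 169916901 to 170736900. That is 20 over the lists, against 11 on 14q and 41 on 1p, the third sparsest. The short arm of chromosome 1 held 15, 19 and 7, of which 14, 16 and 7 lay beyond 700 kb. On 4q there were 15, 30 and 19, and the short arm of chromosome 8 held 27, 16 and 21. These 5 were the emptiest ends.

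The tips of the long arms of chromosomes 4 and 10 carry the D4Z4 macrosatellite, a repeat array whose loss of silencing on chromosome 4 underlies facioscapulohumeral muscular dystrophy. On chromosome 4 the last 300 kb before the outermost silencer held 2 silencers in 293T, 1 in K562 and none in LNCap. Most members of that end lay 700 to 1000 kb inward, with 11, 28 and 19 silencers. On chromosome 10 the last 100 kb held none in 293T, 9 in K562 and 5 in LNCap. A count of 0 allows up to 3 silencers within counting error.

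The short arm of chromosome 16, whose tip holds the alpha-globin genes that erythroid cells express, did not stand out in K562. It held 36 silencers of K562, 33 of LNCap and 28 of 293T, and the K562 count was 1.15 times the mean of the others. Between 100 and 300 kb from the start lay 17 of the K562 silencers, 20 of LNCap and 15 of 293T.

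The lists were in imbalance mostly where 293T was low. Windows with 20 or more silencers were read for lists beyond 2 times, or below 0.5 times, the size-scaled mean of the others. Of the 38 ends with at least 20 silencers, 293T was under 0.5 times at 3 (7.89%), against 1.55% of the 2653 other autosomal windows. It was over 2 times at none, against 1.7% of other windows. LNCap was under 0.5 times at 1 end, against 1.43%, and over 2 times at none, against 0.113%. K562 was called at no end, against 0.188% of other windows over and 0.151% under.

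**Figure D4:**
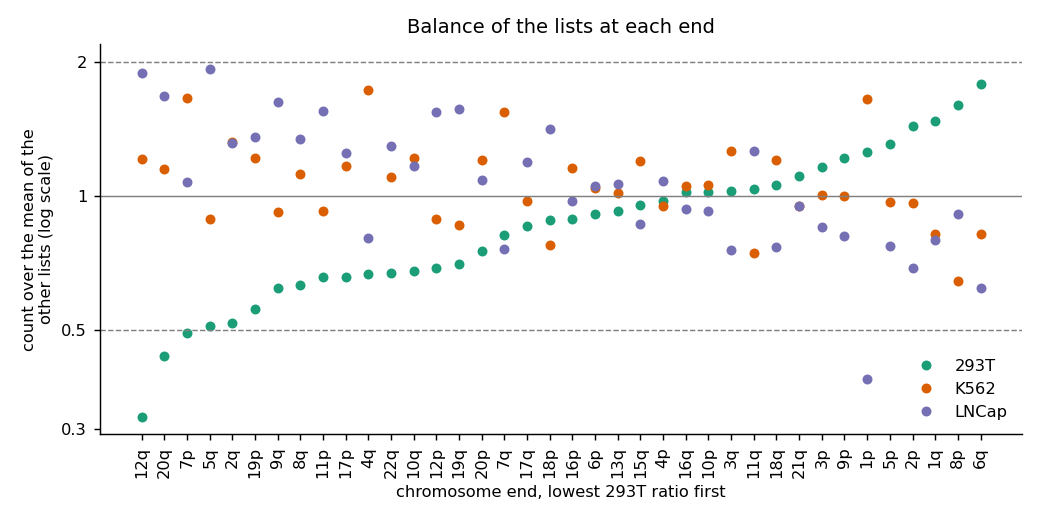
Each list's size-scaled count over the mean of the other lists (y axis, log scale) at the 38 ends with at least 20 silencers (x axis, ordered by the 293T ratio); dashed lines mark 2 and 0.5. The 293T points cross below 0.5 at 12q, 20q and 7p, and the LNCap point does so at 1p.

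The long arm of chromosome 12 was the most unbalanced. Its last megabase, which includes a cluster of zinc finger genes, held 78 silencers of LNCap (exact interval 61.7 to 97.3) and 59 of K562 (44.9 to 76.1), but only 20 of 293T (12.2 to 30.9). The 293T interval met neither of the others. The 293T count was 0.319 times the mean of the other lists, 0.365 times K562 after scaling (0.208 to 0.616) and 0.283 times LNCap (0.164 to 0.468). The LNCap silencers were packed towards the tip: 63 of the 78 lay in the outermost 500 kb, against 39 of 59 in K562 and 12 of 20 in 293T.

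At 20q there were 21, 46 and 59 silencers, a 293T ratio of 0.437. Its 293T share was 0.492 times that of K562 (0.279 to 0.842) and 0.393 times that of LNCap (0.227 to 0.657). The short arm of chromosome 7 held 23, 57 and 45 and a 293T ratio of 0.491, with 0.435 times K562 (0.256 to 0.717) and 0.565 times LNCap (0.326 to 0.953). There K562 led in the step from 600 to 700 kb, with 17 silencers against 7 in each of the others. The short arm of chromosome 1 was low in LNCap, with a ratio of 0.388 on 7 silencers. Its K562 share was 2.78 times that of LNCap, with a wide interval of 1.12 to 7.83.

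Over all 39 ends, the exact interval of the ratio of 293T to LNCap shares lay below 1 at 12, against 10.7% of other windows, and above 1 at 1, against 11.7%. For 293T and K562 it lay below 1 at 5 ends, against 8.55%, and above 1 at 1, against 8.37%. For K562 and LNCap it lay below 1 at 4 ends, 5q, 9q, 18p and 19q, against 2.52%, and above 1 at 1p, against 3.26%. On the long arm of chromosome 5 the counts were 27, 44 and 72, and LNCap was 1.92 times the mean of the others. The order of the ends was closer between K562 and LNCap than between either and 293T. Spearman's coefficient over the 39 ends was 0.89 between LNCap and K562. It was 0.70 between K562 and 293T and 0.58 between LNCap and 293T. These are descriptions over ends that share a chromosome in pairs and may share base composition.

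Silencers near the ends coincided between lists somewhat more often than elsewhere. Of 1753 K562 members, 337 overlapped a LNCap silencer by at least 1 bp (19.2%, Wilson interval 17.4 to 21.1), against 15.6% (15.4 to 15.8) in the rest of the autosomes. Of 1892 LNCap members, 332 overlapped K562 (17.5%, 15.9 to 19.3), against 15.3% (15.1 to 15.5). Of 1374 members in 293T, 79 overlapped LNCap (5.75%, 4.64 to 7.11), against 3.55%, and 60 overlapped K562 (4.37%, 3.41 to 5.58), against 3.29%. In the other direction, 83 LNCap members overlapped 293T (4.39%, 3.55 to 5.41), against 3.20% (3.10 to 3.30), and 58 K562 members did (3.31%, 2.57 to 4.25), against 3.01%. In 5 of the 6 ordered pairs the interval at the ends lay above the value elsewhere, the exception being K562 in 293T, and in 4 it did so once chromosomes were weighted as below. Both directions of a pair count nearly the same overlaps and are not separate evidence.

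**Figure D5:**
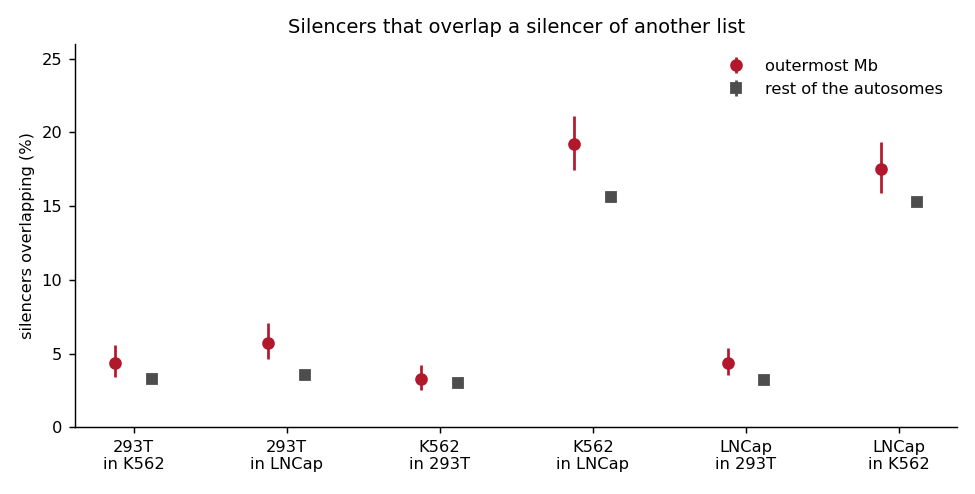
Percentage of silencers of the first list that overlap the second list by at least 1 bp (y axis) for the 6 ordered pairs of lists (x axis), in the outermost megabase and in the rest of the autosomes, with Wilson 95% intervals. The pair of K562 and LNCap lies between 15.3% and 19.2%, and the pairs with 293T between 3.01% and 5.75%.

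Coverage and chromosome differed between ends and rest as well. LNCap silencers covered 0.468% of bases at the ends and 0.418% elsewhere, and K562 silencers 0.420% and 0.410%, whereas 293T silencers covered 0.297% and 0.346%. Weighted to the chromosomes of the members, the rest of the autosomes gave 16.1% for K562 in LNCap, 15.8% for LNCap in K562, 3.98% for 293T in LNCap and 3.36% for LNCap in 293T, all still under the intervals at the ends. For 293T in K562 it gave 3.58% and for K562 in 293T 3.09%, both inside the intervals at the ends. In the neighbouring megabase from 1 to 2 Mb the shares were 16.9% (15.3 to 18.8) for K562 in LNCap, 17.1% (15.4 to 18.9) for LNCap in K562, 5.57% (4.43 to 6.98) for 293T in LNCap and 3.69% (2.91 to 4.67) for LNCap in 293T. There 293T in K562 reached 6.29% (5.08 to 7.77) and K562 in 293T 4.43% (3.57 to 5.49), which were higher values than at the ends. Each of these 6 intervals overlapped that of the outermost megabase. The higher sharing was thus not shown to be particular to the outermost megabase, and what part density had in it was not tested.

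Sharing between K562 and LNCap varied among ends. The end exceeded the autosomal share at 25 of 39 ends, with a median of 18.8%. It was highest on the short arm of chromosome 12, where 15 of 53 K562 silencers overlapped LNCap (28.3%), and high on 18q (26.8%), 18p (26.6%) and 20p (25.7%). Among ends with at least 20 silencers in K562 it was lowest on the long arm of chromosome 1, where 4 of 57 overlapped (7.02%), the end on which 293T was fullest. On the unbalanced long arm of chromosome 12 it was 8 of 59 (13.6%).

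Merging the members of all lists gave 4539 regions. Of these, 1252 were held by 293T alone (27.6%, Wilson interval 26.3 to 28.9), below the 31.98% elsewhere. K562 alone held 1378 (30.4%, 29.04 to 31.7), close to the 30.1% elsewhere, and LNCap alone held 1496 (32.96%, 31.6 to 34.3), above the 30.9% elsewhere. K562 and LNCap without 293T held 296 regions (6.52%, Wilson interval 5.84 to 7.28), against 5.10% elsewhere. 293T and LNCap held 58 (1.28%, 0.990 to 1.65), against 0.843%, and 293T and K562 held 37 (0.815%), against 0.762%. All 3 lists held 22 regions (0.485%, 0.320 to 0.733), against 0.369%, an interval that includes the value elsewhere.

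The 22 regions held by all 3 lists lay on 16 ends, and in 16 of them some bases were covered by every list. In the other 6 the silencers met only in pairs. The longest stretch common to the lists was on the long arm of chromosome 9, at chr9:137859143-137859784, where 250 bp were covered by all, with scores of 3.7 in LNCap, 3.0 in 293T and 2.8 in K562. The same end held a second such region, chr9:137408434-137408551, with 83 common bases and scores of 2.1 (293T), 2.3 (K562) and 3.3 (LNCap). The region at chr8:145037051-145037251, 38.99 kb from the outermost silencer of that arm, shared 100 bp with scores of 2.3, 3.1 and 2.8 in the same order.

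4 regions shared 50 bp. On the long arm of chromosome 16, chr16:89662801-89663301 was a 500 bp silencer in K562 and a 50 bp one in 293T, with scores of 2.1 in both and 2.7 in LNCap. On the long arm of chromosome 17, chr17:82284337-82284701 had scores of 4.0 in 293T, 2.6 in K562 and 2.5 in LNCap. On the short arm of chromosome 2, chr2:370276-370850 held the widest 293T member, 551 bp with a score of 2.5. On the long arm of chromosome 5, chr5:181206851-181207201 had scores of 2.7, 2.1 and 2.0. On the short arm of chromosome 7, chr7:685501-685921 shared 49 bp, with scores of 2.0 in K562 and 3.0 in LNCap. Of its 2 silencers in 293T, chr7:685800-685851 had the highest score of any 293T member, 6.7. That silencer overlapped K562 but not LNCap, so it did not hold the common bases. Scores are the authors' and are not comparable between lists.

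The activity score, on a scale that the sources do not state, had a median of 2.3 at the ends in 293T and LNCap and 2.2 in K562. In the rest of the autosomes it was 2.3, 2.2 and 2.2. LNCap members scored 3 or more in 14.1% of cases (Wilson interval 12.6 to 15.8), against 11.6% (11.4 to 11.8) elsewhere, and 4 or more in 2.59% (1.9645 to 3.41), an interval that holds the 2.16% elsewhere. 293T members scored 4 or more in 3.71% (2.83 to 4.85), against 2.68% (2.59 to 2.77), while at 3 or more they were level, at 13.97% and 14.2%. For K562 the interval of the members held the value elsewhere at either bound (10.2% against 9.85%, and 1.94% against 1.57%). No member had an infinite score.

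The highest scores in 293T after that on chromosome 7 belonged to chr11:134652251-134652301 (5.9) and chr17:846551-846651 (5.8), which overlapped no other list. In K562 they were chr4:189215479-189215529 (7.1) and chr3:197828551-197828601 (6.5), which overlapped none, and chr11:776051-776151 (6.2). The last overlapped the second highest LNCap silencer, chr11:776001-776151 (6.3), so that a single site on the short arm of chromosome 11 ranked among the 3 strongest members of both lists. The highest LNCap score was 8.8 at chr4:189289705-189289755, which overlapped K562, and the third was 6.2 at chr17:820493-820643, which overlapped none. Members shared between K562 and LNCap scored 3 or more in 23.5% of LNCap cases (19.3 to 28.3), against 12.1% (10.6 to 13.8) of LNCap members not shared with K562. For K562 the shares were 15.1% (11.7 to 19.4) and 8.97% (7.59 to 10.6). The rest of the autosomes had the same contrast, with 18.7% of shared and 10.3% of unshared LNCap silencers, and 14.4% of shared and 8.996% of unshared K562 silencers, so it was not particular to the ends. In both lists, at the ends and elsewhere, shared silencers had a median width of 100 bp and unshared ones 50 bp. What part width had in the contrast of scores was not tested.

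Widths followed the 50 bp windows of the lists, with a median of 50 bp in each. Members of exactly 50 bp were 63.3% in 293T (Wilson interval 60.7 to 65.8), against 64.5% elsewhere, and 58.4% in K562 (56.03 to 60.6), against 58.7%, so that both intervals held the value elsewhere. In LNCap they were 56.5% (54.3 to 58.7), against 60.7%. The widest member was a LNCap silencer of 1258 bp near the tip of the long arm of chromosome 12, at chr12:133202643-133203901, with a score of 2.6 and a K562 overlap. The widest K562 members measured 650 bp, 1 of them at chr18:639034-639684 overlapping LNCap.

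Members stood in tight groups slightly more often than other silencers. Neighbours of a list lay within 500 bp of each other in 16.5% of cases at the ends in 293T (Wilson interval 14.6 to 18.6), against 13.8% elsewhere, in 15.99% (14.3 to 17.8) against 13.3% in K562, and in 17.2% (15.5 to 18.9) against 14.4% in LNCap. Runs of at least 3 such neighbours came to 39 in LNCap, 36 in K562 and 26 in 293T. They held 6.11% of 293T members (4.97 to 7.51), against 4.41% elsewhere, 6.28% of K562 members (5.23 to 7.51), against 4.502%, and 6.34% of LNCap members (5.33 to 7.53), against 5.06%.

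The longest run was of 293T alone, 5 silencers on the short arm of chromosome 20 from 232801 to 234365, in which neither other list had any. 293T runs of 4 on the long arm of chromosome 2 (241556501 to 241557401) and the short arm of chromosome 8 (397349 to 398232) were also without silencers of the other lists, as were 2 more runs of 4 on 1q, from 248078551 to 248079151 and from 248830531 to 248831222. In K562 the fullest runs had 4 silencers, on the short arm of chromosome 5 (238876 to 239851) and the long arm of 19 (58287001 to 58287851), again in that list alone. A K562 run of 3 on the long arm of chromosome 5 (181206851 to 181207901) contained a region of all 3 lists. The fullest LNCap runs, of 4, lay on the long arm of chromosome 16 (89592721 to 89593785, with 1 K562 silencer), the short arm of 18 (513250 to 514201, with 2) and the long arm of 9 (137260757 to 137261407, with none).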

How the data were processed

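The analysis used the authors' 3 deposited silencer lists, with chromosome, start, end and an activity score, per the file headers. Bowtie2, SAMtools and hg38 are named in the submitters' processing notes, without versions; for the region caller, its thresholds, the input used and any pooling of libraries, the entry is: not given in the sources used here. No score lies below 2. Lines that were cut, run together, impossible or wider than 5000 bp were left out (58 in 293T, 12 in K562, 25 in LNCap). Coordinates were left unchanged, and no source says which base starts are counted from. The mouse tables given as reference were not used, so no gene annotation or sequence is reported; gene loci are named as background only.

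Densities have exact Poisson intervals, their ratios exact conditional binomial intervals, shares Wilson intervals, and ratios to the mean of the other lists a normal interval on the log scale. Sizes were scaled to each list's autosomal total. With 1 list per line there is no replicate error, so no test was run. Regions were named by rank of count, score, common bases and run length. The members, windows and rules were chosen with earlier results of these data known. The calculations were checked on made-up lists with a known end density and overlap. Tables were made with pandas 2.3.3 and numpy 2.4.6 under Python 3.11.15, intervals with scipy 1.17.1, figures with matplotlib 3.10.9.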

Additional observations from a re-analysis of the deposited data

How the results depend on the processing

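No paired analysis was possible because each line has 1 list and the lists carry no replicate. The depth behind each silencer is unknown, and the intervals cover counting error only. Of 120 recomputed values, 86 stayed within the interval of the value reported, or within 1.5 times for counts. The ratio of end to rest density crossed to below 1 for LNCap in the outermost 0.5 Mb (0.939) and on the 50 bp grid (0.991), where both intervals held 1. For 293T it crossed to above 1 against the neighbouring megabase (1.09, interval 1.01 to 1.18, chosen after seeing the data). It moved to 0.894 in 293T above the median score, to 0.943 (0.5 Mb), 0.939 (grid) and 0.958 (own chromosome, chosen after seeing the data) in K562, and to 1.01 in LNCap for short arms and also for own chromosomes (1.01). With midpoints within 500 bp, the share was 31.2% for K562 in LNCap, 30.5% for LNCap in K562, 13.5% for 293T in K562, 10.7% for K562 in 293T, 15.1% for 293T in LNCap and 11.7% for LNCap in 293T; with at least 0.5 of the narrower silencer it was 16.3% (K562 in LNCap), 14.7% (LNCap in K562), 4.29% (293T in LNCap) and 3.22% (LNCap in 293T). Above the median score it was 14.9% for LNCap in K562, 2.53% for 293T in K562, 1.94% for K562 in 293T and 3.54% for LNCap in 293T, and on short arms 19.6% for LNCap in K562. These recomputed shares are of the ends only, with no value for the rest of the autosomes beside them. Whether the excess of the ends over the rest holds under these settings was therefore not tested. The 293T share over the others moved to 0.909 (0.5 Mb), 0.882 (short arms) and 0.892 (grid), and that of LNCap to 1.04 (0.5 Mb). At a fold of 1.5, 293T was over at 2 of 38 ends (against 11.4% of other windows) and under at 11 (9.31%), K562 over at 4 (2.22%) and under at 1 (4.9%), and LNCap over at 7 (3.62%) and under at 2 (8.37%). The causes were not tested.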
